A study of Rattus norvegicus with 9 samples.

Results

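The genes of glycolysis, lactate handling and pyruvate use were followed in cultured cardiac fibroblasts of the rat, which make the collagen scaffold of the heart. The set was fixed by name: 38 genes were listed and 37 of them stood under that name in a count table of 17337 genes. The missing name, Pcx (pyruvate carboxylase), is an older synonym of Pc in RefSeq, and the values under Pc are given apart. Of the 37 genes, 34 passed the filter on low counts and were tested, as were 11337 genes of the whole table. RNA came from hearts of Sprague Dawley rats at 3 ages, with 3 libraries each: fetal (E18, embryonic day 18), neonatal (P1, postnatal day 1) and adult (7 weeks). All groups were P0 cells with no treatment named, grown to confluency in T75 flasks in DMEM with fetal bovine serum, penicillin/streptomycin and ascorbic acid before lysis. P0 was given for all 3 ages alike, so it does not stand for a postnatal day. The labels name no sorting step and do not say whether the libraries of an age came from separate animals, so p-values measure the spread between these libraries, which may be technical.

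Glycolysis splits glucose into pyruvate in the cytosol and yields ATP without oxygen. Hexokinase and phosphofructokinase catalyse its committing steps, and lactate dehydrogenase turns the pyruvate into lactate, which leaves the cell through monocarboxylate transporters. Alternatively pyruvate enters the mitochondrion through the pyruvate carrier and is oxidised to acetyl-CoA by the pyruvate dehydrogenase complex, which the pyruvate dehydrogenase kinases switch off. Most steps have several isozymes with different tissue patterns: Hk3 is known from blood cells, Slc2a4, Pgam2 and Pfkm from muscle, and Ldhb from heart. The fetal heart is known to rely on glycolysis more than the adult heart muscle, which mainly burns fatty acids.

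Libraries held 13392825 to 22850491 assigned counts, and the 37 genes together took 0.403 to 0.435% of the counts in fetal libraries, 0.326 to 0.334% in neonatal ones and 0.518 to 0.563% in adult ones. Levels of a gene are given as counts per 1000000 assigned counts with TMM-scaled library sizes (CPM). Of 10 fibroblast markers examined 9, among them Col1a1, Col3a1 and Pdgfra, were clearly present at each age, while Col1a2 was at 0.0531 to 0.976 CPM. The 10 genes had summed levels of 23628 to 50419 CPM in fetal libraries, 67910.4 to 74175 in neonatal ones and 22228 to 29813 in adult ones. Col1a1 and Col3a1 made up most of each sum. In adult libraries 3 of the 10 genes (Pdgfra, Tcf21 and Dcn) lay above the neonatal range and 5 below it. Markers of other cell types were present too. The 13 cardiomyocyte markers summed to 10286 to 14633 CPM in fetal libraries, 6562 to 7208 in neonatal ones and 306 to 320.0 in adult ones, and the 12 macrophage markers to 15 to 70.7, 166 to 183 and 4181 to 5844 CPM. In adult libraries nearly all of the cardiomyocyte sum was Tnnt2 (cardiac troponin T, 303 to 316 CPM) and Csrp3 was at 0, while Cd163 was the 1 macrophage marker at 0 in fetal and neonatal libraries. The 8 endothelial markers summed to 8.26 to 9.48, 17.4 to 20.8 and 82.0 to 96.5 CPM at the 3 ages. Most of the adult endothelial sum was Tie1, at 68.6 to 72.5 CPM in adult and at most 2.14 in neonatal libraries. Of the 8 genes 4 lay above the neonatal range in adult libraries and 2 (Kdr and Tek) below it. The 7 mural markers summed to 606 to 1096, 1393 to 1464 and 206 to 363 CPM. Fetal replicate 3 stood apart from the other fetal libraries, with a chi-square per degree of freedom over genes of 90.02 and 97.3 against 3.94 between those. It held the highest fetal macrophage sum and the lowest fetal cardiomyocyte, fibroblast and mural sums. Its Col1a1 was at 14783 CPM, against 32979 and 30304 in the other fetal libraries, while Pdgfra and Postn were highest in it. Adult replicate 1 differed from the other adult libraries by 25.8 and 43.0 on that measure, against 6.76 between those, and held the lowest adult macrophage sum. In bulk RNA, fewer cells of a type and less RNA per cell cannot be told apart.

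Members of the set differ in how well they could be counted. Slc2a3, Eno2 and Tpi1 are each annotated in rn6 as 2 copies with the same exon lengths, and the counting command set no option to count reads that map to several places. Slc2a3, a neuronal-type glucose transporter, had at most 2 counts in a library. Tpi1, triosephosphate isomerase, had at most 7 counts, and Eno2, the neuronal enolase, had none. A level of these 3 genes cannot be read from the table. Pseudogenes are also named after several members in RefSeq (GRCr8): 81 after Gapdh, 31 after Eno1, 30 after Ldha, 19 after Pkm, 13 after Pgam1, 9 after Aldoa and 8 after Pgk1. Their part in the counts was not tested, so their levels per length are uncertain.

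More members fell than rose from fetal to neonatal cells. From neonatal to adult cells more rose than fell, with Gpi, Pfkl, Aldoa, Gapdh, Pgk1, Eno1, Pkm and Ldha among the higher genes and the pyruvate dehydrogenase subunits Pdha1, Pdhb and Dlat among the lower. Between neonatal and fetal cells 15 of 34 members were lower and 4 higher, or 44.1% and 11.8%, against 18.0% and 18.3% of all genes tested. The median log2 fold change was -0.25 over the members and -0.01 over all genes. Between adult and neonatal cells 17 members were higher and 9 lower, or 50% and 26.5%, against 31.6% and 31.8% of all genes, with medians of 0.27 and -0.01. Between adult and fetal cells 12 were higher and 12 lower, 35.3% each way. These shares were close to the 34.9% and 35.5% of all genes. The calls are those of edgeR's quasi-likelihood test with Benjamini-Hochberg adjusted p under 0.05. With a log2 fold change of at least 1 in size as a further condition, 1 member (Hk3) was higher and 1 (Slc16a3) lower between neonatal and fetal cells, against 5.80% and 5.42% of all genes. Under that condition 7 were higher and 4 lower between adult and neonatal cells (all genes 12.8% and 12.2%), and 2 higher and 5 lower between adult and fetal cells (all genes 16.6% and 15.8%). Any 2 of these comparisons share the libraries of 1 age, so their calls are not independent. Adult libraries also held the highest macrophage sums and the lowest cardiomyocyte sums. The part of other cell types in the members' calls was not tested.

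The number of members called lower between neonatal and fetal cells changed with the libraries and the scaling. Without neonatal replicate 1 or 2 it was 9, and without neonatal replicate 3 it was 10. Calls over all genes dropped as well, from 4114 to 2607, 2476 and 2575 without neonatal replicates 1, 2 and 3. The members' median log2 fold change was then -0.23, -0.26 and -0.24. Without fetal replicate 3 there were 18 lower and 4 higher members in this comparison, and 13 lower and 13 higher between adult and fetal cells. Without adult replicate 1, 9 were lower and 14 higher between adult and neonatal, and 11 lower and 13 higher between adult and fetal cells. With library size alone as the scaling 23 members were lower and 1 higher between neonatal and fetal cells. That scaling moved the median of all genes by -0.17 in this comparison and by -0.11 between adult and fetal cells, and the share of higher genes among all calls from 50.4% to 29.0% and from 49.5% to 43.4%. In CPM, the ages shared no range of values for 25 members between neonatal and fetal cells, 29 between adult and neonatal and 23 between adult and fetal cells, where 57.4%, 76.1% and 71.8% of all tested genes did not.

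**Figure D1:**
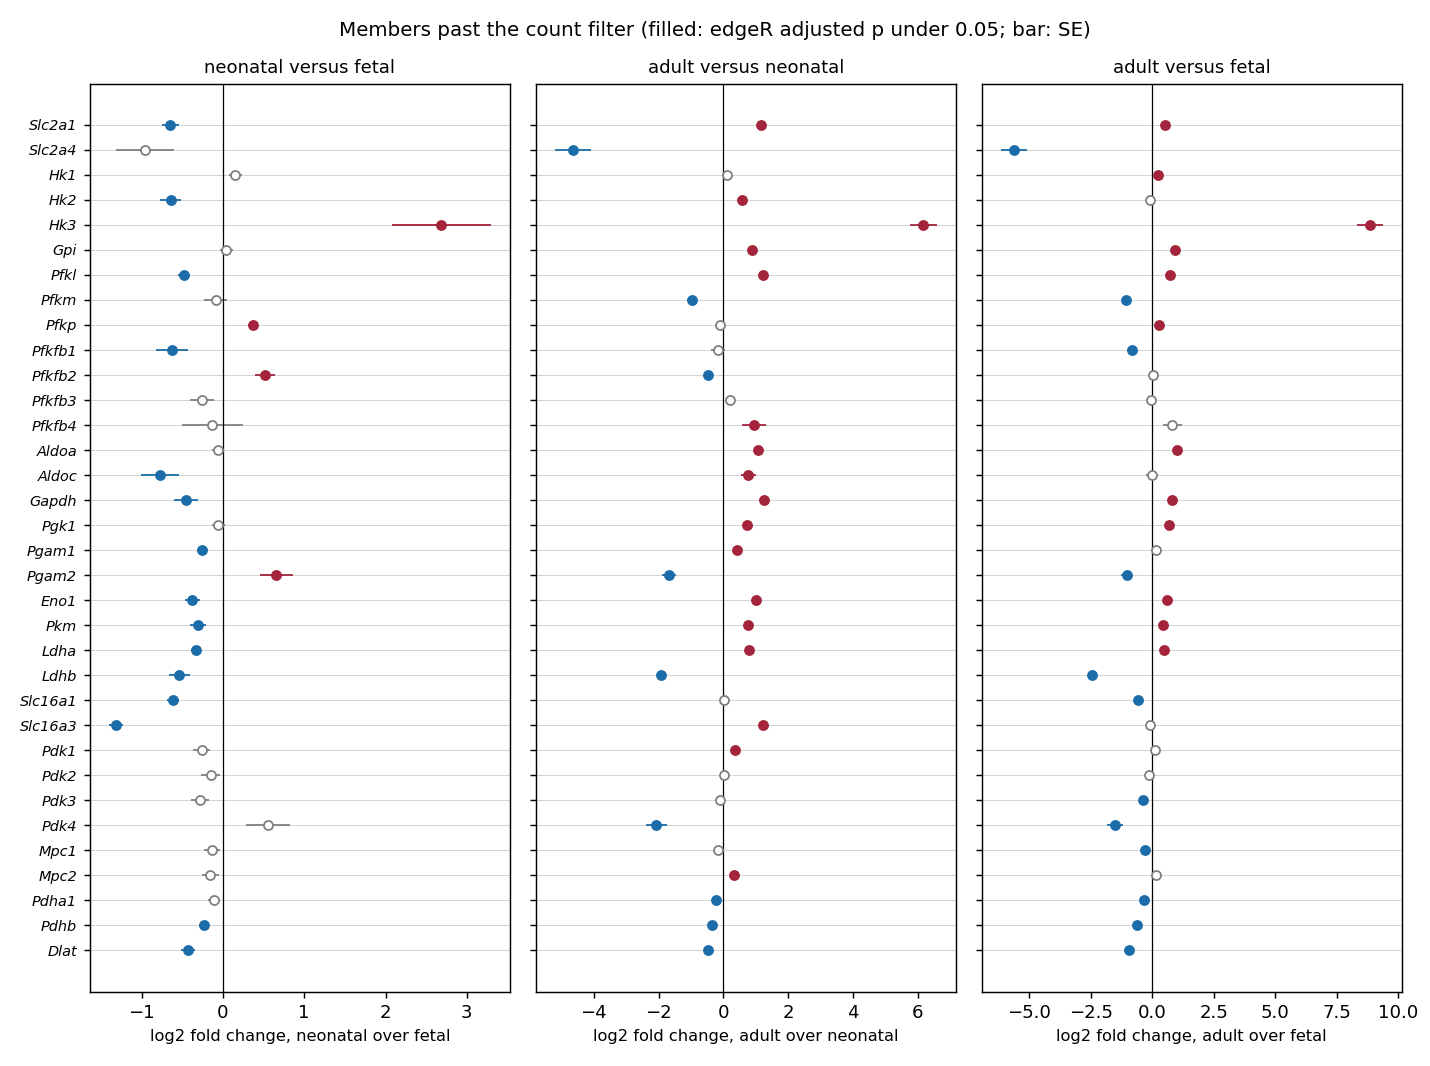
Log2 fold changes of the 34 tested members in the 3 comparisons of ages (x axis, one panel each, with different ranges; bars are SE), ordered by role from glucose entry at the top to pyruvate oxidation at the bottom. Filled points passed an edgeR adjusted p of 0.05 (red higher, blue lower in the older age) and open grey points did not; blue points prevail in the left panel, and Hk3 and Slc2a4 lie farthest out in the 2 adult panels.

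Glucose enters these cells through facilitative transporters. Slc2a1 (Glut1, chromosome 5, 138154680 to 138182897, rn6), the basal transporter of most cells, was at 106, 98.9 and 104 CPM in the fetal libraries, 61.5, 71.8 and 63.9 in the neonatal and 170.2, 146 and 128 in the adult. The neonatal libraries were the lowest and the adult the highest, with no overlap between any ages. Slc2a1 fell 1.57-fold from fetal to neonatal cells (log2 fold change -0.65, SE 0.105, edgeR adjusted p = 0.00180) and was 2.25-fold higher in adult than in neonatal cells (log2 fold change 1.17, SE 0.106, edgeR adjusted p = 1.33e-05). It was also 1.44-fold higher in adult than in fetal cells (log2 fold change 0.52, SE 0.104, edgeR adjusted p = 0.00148).

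Slc2a4 (Glut4, chromosome 10, 56552983 to 56558487), the insulin-responsive transporter of muscle and fat, was lower in adult cells than at either earlier age. It was at 16.9, 15.7 and 8.33 CPM in fetal libraries, 5.89, 7.48 and 7.70 in neonatal ones and 0.306, 0.505 and 0 in adult ones, the last from 4, 7 and 0 counts. Adult libraries lay below all others. The difference was 25.1-fold against neonatal (log2 fold change -4.65, SE 0.552, edgeR adjusted p = 7.66e-05) and 48.8-fold against fetal cells (log2 fold change -5.61, SE 0.539, edgeR adjusted p = 1.35e-05), estimates that rest on few adult counts. Between neonatal and fetal cells the libraries did not overlap, but the test was not passed (log2 fold change -0.96, edgeR adjusted p = 0.0621). The summed cardiomyocyte markers were also lowest in the adult libraries, where all 13 lay below every neonatal and fetal library. Their part in the Slc2a4 values was not tested.

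Hexokinases phosphorylate glucose and trap it in the cell. Hk1 (chromosome 20, 31911460 to 31979780), the widespread form bound to mitochondria, was at 239, 232 and 197 CPM in fetal libraries, 244, 250 and 248 in neonatal ones and 269.7, 276 and 249 in adult ones, a narrow range. It was 1.19-fold higher in adult than in fetal cells (log2 fold change 0.25, adjusted p = 0.0198, edgeR), and this call was lost without adult replicate 2 (edgeR adjusted p = 0.0701) and with library size alone as the scaling. Hk2, the inducible form of muscle and growing cells, fell from 67.7 ± 5.66 to 43.5 ± 0.842 CPM (mean ± SD, n = 3) around birth and was 64.8 ± 12.8 CPM in the adult group (edgeR adjusted p = 0.00513 against fetal, 0.00349 between the 2 postnatal ages). Gpi, which turns glucose-6-phosphate into fructose-6-phosphate, was level around birth, at 364 ± 33.4 and 375 ± 8.54 CPM, and rose 1.86-fold to 698 ± 27.4 CPM in adult cells (log2 fold change 0.90, SE 0.0795, edgeR adjusted p = 1.21e-05).

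Hk3 (chromosome 17, 10137974 to 10152955), a hexokinase known from leukocytes, changed most of all 34 members in both adult comparisons. Its level was 0.162, 0.0441 and 1.49 CPM in the fetal libraries, from 3, 1 and 28 counts, 3.91, 3.39 and 3.17 CPM in the neonatal and 280.5, 253 and 225 CPM in the adult. Adult cells were 72.2-fold above neonatal (log2 fold change 6.17, SE 0.417, edgeR adjusted p = 3.65e-06) and 464-fold above fetal cells (log2 fold change 8.86, SE 0.512, edgeR adjusted p = 8.46e-07). Neonatal cells were 6.43-fold above fetal cells (log2 fold change 2.69, SE 0.610, edgeR adjusted p = 0.0101), and without fetal replicate 3 this log2 fold change was 5.07 (edgeR adjusted p = 2.13e-06). Fitted on the 6 fetal and neonatal libraries alone it was not called (edgeR adjusted p = 0.0535). The summed macrophage markers ran in the same order of ages. All 12 were above both other ages in each adult library, with Lyz2 (lysozyme) at 1729.9 to 2634 CPM in adult and 59.2 to 65.2 in neonatal libraries. In fetal replicate 3, Lyz2 was at 12.4 CPM, against 1.24 and 0.882 in the other fetal libraries. Within the adult age Hk3 was highest in replicate 1, the library with the lowest adult macrophage sum. Cd163 and Itgam were also highest in that library, while the other macrophage markers were lowest there. The part of macrophage RNA in the Hk3 values was not tested.

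**Figure D2:**
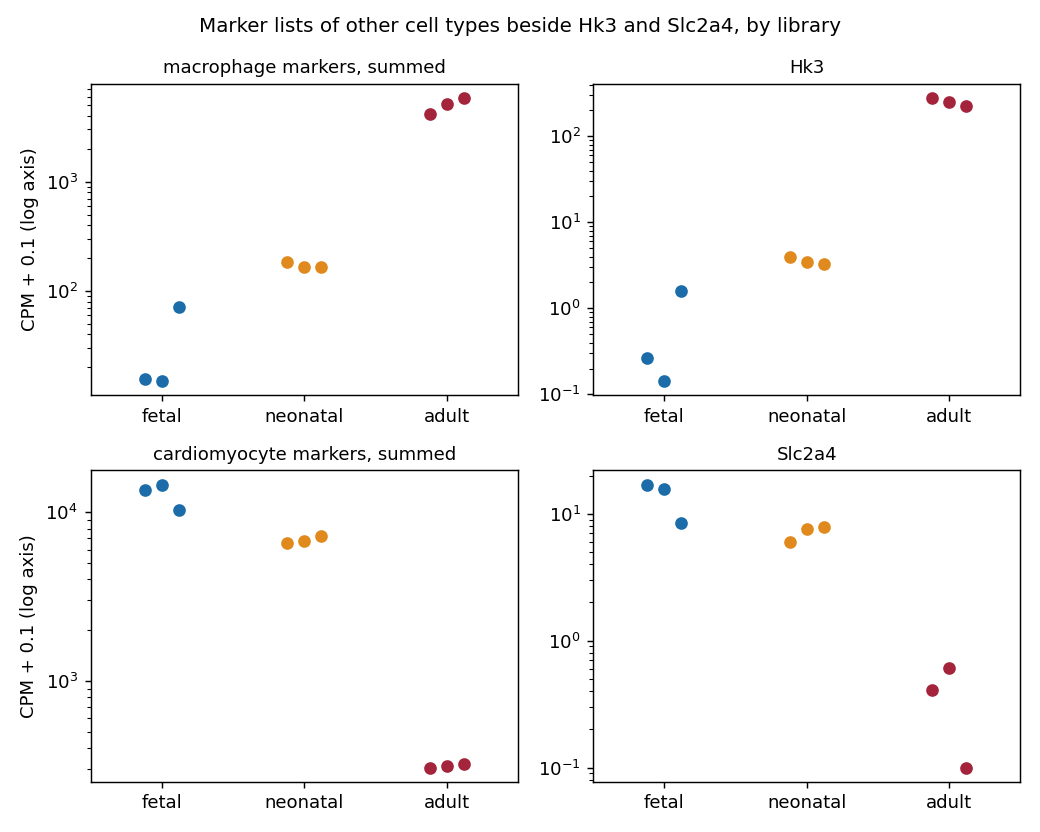
Summed CPM of the macrophage and cardiomyocyte marker lists (left) beside Hk3 and Slc2a4 (right) in the 9 libraries; y axes are CPM + 0.1 on a log scale, each point is 1 library, and points of an age are in the order of replicates 1 to 3. The adult libraries are highest for the macrophage sum and Hk3, and lowest for the cardiomyocyte sum and Slc2a4.

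Phosphofructokinase commits sugar to glycolysis and is built from liver-type (Pfkl), muscle-type (Pfkm) and platelet-type (Pfkp) subunits. Pfkl (chromosome 20, 11393887 to 11415880) was at 147, 131 and 124 CPM in fetal libraries, 92.8, 98.7 and 96.4 in neonatal ones and 233, 228 and 214 in adult ones. The ages did not overlap. It fell 1.40-fold around birth (log2 fold change -0.48, SE 0.0742, edgeR adjusted p = 0.00142) and was 2.35-fold higher in adult than in neonatal cells (log2 fold change 1.23, SE 0.0749, edgeR adjusted p = 1.30e-06). Pfkm (chromosome 7, 139698148 to 139722132) was at 113, 110.1 and 80.2 CPM in fetal libraries, 94.0, 92.5 and 98.5 in neonatal ones and 54.8, 49.8 and 40.8 in adult ones. Only its adult libraries stood apart, below the others, 2.09-fold lower than fetal (log2 fold change -1.06, SE 0.143, edgeR adjusted p = 0.000119) and 1.96-fold lower than neonatal cells (log2 fold change -0.97, SE 0.143, edgeR adjusted p = 0.000283). The summed cardiomyocyte markers were also lowest in the adult libraries. That sum fell around birth, where Pfkm was not called (log2 fold change -0.09, edgeR adjusted p = 0.638). The part of these markers' cells in the Pfkm values was not tested. Pfkp (chromosome 17, 68510765 to 68574387) was at 154, 159 and 155 CPM in fetal libraries, 207, 194 and 202 in neonatal ones and 182, 194 and 189.6 in adult ones. It rose 1.29-fold around birth (edgeR adjusted p = 0.00134) and was 1.21-fold higher in adult than in fetal cells (edgeR adjusted p = 0.00172). With library size alone as the scaling both Pfkp calls were lost.

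The bifunctional PFKFB enzymes make and break fructose-2,6-bisphosphate, the strongest activator of phosphofructokinase, and none of the 4 was abundant. Pfkfb3 (chromosome 17, 70684134 to 70711224), the isozyme of proliferating cells, led the family at 25.8, 26.0 and 17.7 CPM in fetal libraries, 18.0, 20.3 and 19.9 in neonatal ones and 21.7, 21.5 and 24.7 in adult ones, and no comparison passed the test (edgeR adjusted p from 0.202 to 0.850). Pfkfb2, the heart-type isozyme, was highest in neonatal cells, at 17.3 ± 0.408 CPM, against 12.1 ± 1.52 in fetal (edgeR adjusted p = 0.0112) and 12.5 ± 1.34 in adult cultures (edgeR adjusted p = 0.00859). With library size alone the former call was lost. Pfkfb1, the liver and muscle form, had 4.61 ± 0.892 CPM in fetal and 2.65 ± 0.188 in adult cultures (edgeR adjusted p = 0.00607). Its fall from fetal to neonatal cells (edgeR adjusted p = 0.0338) was lost without fetal replicate 2 or 3 or any 1 neonatal library (edgeR adjusted p from 0.0522 to 0.128). Pfkfb4 was at 1.90 ± 0.318 CPM in neonatal and 3.72 ± 1.09 in adult cultures (edgeR adjusted p = 0.0473), a call lost without any 1 of the 6 libraries (edgeR adjusted p from 0.0559 to 0.164).

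Genes of the middle and lower steps of glycolysis were higher in adult than in neonatal cells, except the scarce Pgam2. Macrophage sums were also higher in adult libraries, and the part of macrophage RNA in these values was not tested. Aldoa (chromosome 1, 198228387 to 198233588), the main aldolase of muscle and most cells, was at 722, 690.3 and 695 CPM in fetal libraries, 674, 671 and 675 in neonatal ones and 1325, 1379.7 and 1532 in adult ones. Adult libraries lay above all others, and Aldoa rose 2.10-fold from neonatal to adult cells (log2 fold change 1.07, SE 0.0743, edgeR adjusted p = 2.73e-06) with no call around birth (edgeR adjusted p = 0.539). Gapdh (chromosome 4, 157676396 to 157680268), which makes NADH and is widely used as a reference gene, was at 54.4, 47.1 and 69.2 CPM in fetal libraries, 43.0, 42.2 and 39.5 in neonatal ones and 85.5, 98.7 and 112 in adult ones, so the ages were again apart. It was 2.37-fold higher in adult than in neonatal (log2 fold change 1.25, SE 0.145, edgeR adjusted p = 6.51e-05) and 1.74-fold higher than in fetal cells (log2 fold change 0.80, SE 0.143, edgeR adjusted p = 0.000763). Its fall around birth (log2 fold change -0.45, adjusted p = 0.0357, edgeR) was lost without fetal replicate 1 or 3 or any 1 neonatal library (edgeR adjusted p from 0.0533 to 0.124), and its log2 fold change was -0.28 without fetal replicate 3.

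Eno1 (chromosome 5, 167288223 to 167299610), the general enolase, was at 157, 143 and 174 CPM in fetal libraries, 122, 120.4 and 124 in neonatal ones and 221, 246 and 266 in adult ones. The neonatal libraries were lowest and the adult highest, without overlap. It fell 1.30-fold around birth (log2 fold change -0.38, SE 0.0887, edgeR adjusted p = 0.0108) and was 2.0-fold higher in adult than in neonatal cells (log2 fold change 1.00, SE 0.0894, edgeR adjusted p = 1.23e-05). Pgam1 (chromosome 1, 261158261 to 261165808), the general phosphoglycerate mutase, was at 449, 430.4 and 412 CPM in fetal libraries, 360.0, 362 and 363 in neonatal ones and 456, 477 and 514 in adult ones. It rose 1.33-fold from neonatal to adult cells (log2 fold change 0.42, adjusted p = 0.000547, edgeR), and its fall around birth (edgeR adjusted p = 0.0191) was lost without fetal replicate 1 or any 1 neonatal library (edgeR adjusted p from 0.0577 to 0.0803). Pgam2 (chromosome 14, 86045005 to 86047116), the muscle form, was scarce at 2.97, 3.92 and 3.98 CPM in fetal libraries, 5.5, 5.20 and 6.54 in neonatal ones and 1.61, 1.59 and 2.17 in adult ones. It was 3.20-fold lower in adult than in neonatal (log2 fold change -1.68, SE 0.222, edgeR adjusted p = 0.000145) and 2.03-fold lower than in fetal cells (log2 fold change -1.02, adjusted p = 0.00259, edgeR), ages at which the cardiomyocyte markers also stood higher. Its rise around birth (edgeR adjusted p = 0.0320) was lost without fetal replicate 1 or 2 or any 1 neonatal library (edgeR adjusted p from 0.0518 to 0.127) and with library size alone. The cardiomyocyte sum fell around birth, unlike Pgam2, and the part of these markers' cells in the Pgam2 values was not tested.

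The other genes of these steps were also higher in adult than in neonatal cells. Pgk1, phosphoglycerate kinase, was at 358 ± 20.8 CPM in fetal cells, 345 ± 13.9 in neonatal ones and 574 ± 42.3 in adult ones, and it rose 1.67-fold from neonatal to adult cells (edgeR adjusted p = 3.73e-05). Pkm, pyruvate kinase, was at 54.8 ± 8.05, 44.3 ± 1.6 and 75.6 ± 4.98 CPM and 1.70-fold higher in adult than in neonatal cells (edgeR adjusted p = 0.000173). Its fall around birth (edgeR adjusted p = 0.0454) was lost without fetal replicate 3, where the log2 fold change was -0.18, or without any 1 neonatal library (edgeR adjusted p from 0.0677 to 0.149). Gene counts do not separate the spliced forms of Pkm. Aldoc, an aldolase of brain, was at 28.1 ± 8.26, 16.5 ± 0.135 and 28.1 ± 7.03 CPM. Its fall around birth (edgeR adjusted p = 0.0303) was lost without fetal replicate 1 or 2 or any 1 neonatal library (edgeR adjusted p from 0.0831 to 0.0877), and its rise to adult cells (edgeR adjusted p = 0.0182) without neonatal replicate 2 or 3 or adult replicate 1 (edgeR adjusted p from 0.0519 to 0.0687).

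**Figure D3:**
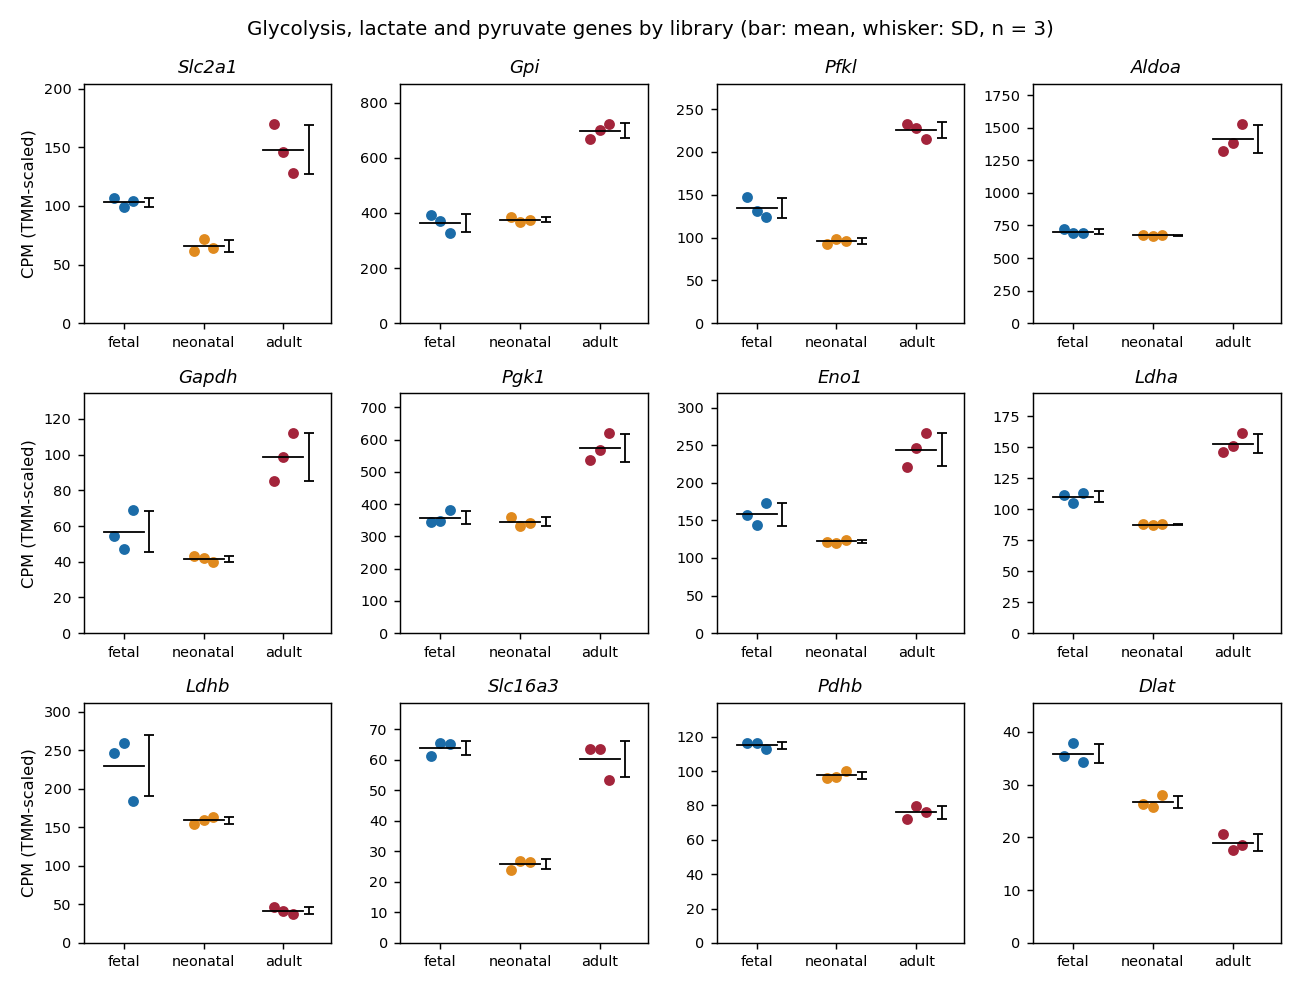
CPM of 12 members in each of the 9 libraries (points; horizontal bar, mean; whisker, SD; n = 3 per age; each y axis starts at 0). The glycolytic genes in the upper panels are highest in adult libraries, Slc16a3 is lowest in neonatal libraries, and Ldhb, Pdhb and Dlat fall from fetal through neonatal to adult libraries.

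Promoter stretches are shown for Slc2a1, Aldoa, Gapdh and Ldha, genes of glucose entry, the middle steps and lactate formation that were higher in adult than in neonatal cells. They were chosen after the search, as 4 of the 10 windows of such members that hold the letters ACGTG, the core that hypoxia-inducible factors are known to bind next to many glycolytic genes. RefSeq (GRCr8) gave windows of 300 bases, from 250 before to 50 after a start site, for 34 of the 37 members, some with several start sites. ACGTG on either strand was in 19 of 38 member windows (50%), against 19.3% of all 33469 windows and 25.3% of the 9039 windows of tested genes. It was in 10 of 19 windows of the members that were higher in adult than in neonatal cells and in 3 of 8 of those that were lower. Among members not called in that comparison, Pfkfb3, Pdk2, Pdk3 and Slc16a1 also held it. Pfkp, Pfkfb1 and Mpc1 did not, and Hk1 had windows with and without it. Of the untested members with windows, Eno2 held it and Tpi1 did not. The letters were thus not particular to the members that rose, and the difference between these shares was not tested. The longer CACGTG, the E-box, contains ACGTG and was in 5 of the 38 member windows (13.2%), against 6.42% of all windows and 9.04% of those of tested genes, and in 1 of 19 windows of the members higher in adult than in neonatal cells. These are matches of letters, not tested sites. The stretches below run 5′ to 3′ on the strand of the gene, with each match of ACGTG or its reverse complement CACGT in capitals and 30 bases on either side.
Slc2a1 chr5:138002441-138002505 (+): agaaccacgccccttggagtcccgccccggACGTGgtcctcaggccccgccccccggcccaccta
Aldoa chr1:190836935-190836999 (-): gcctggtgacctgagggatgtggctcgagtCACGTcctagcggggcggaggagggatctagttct
Gapdh chr4:159652554-159652618 (-): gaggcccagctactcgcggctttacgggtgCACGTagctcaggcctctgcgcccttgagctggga
Ldha chr1:106507975-106508053 (+): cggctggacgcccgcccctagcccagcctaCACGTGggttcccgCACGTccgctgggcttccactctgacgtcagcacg
Counted with the start site at 0, the matches begin at -51 in Slc2a1, -192 in 1 of the 3 Aldoa windows, -121 in Gapdh, and -87 to -73 in Ldha, where a CACGTG and a second CACGT stand side by side. Adult levels of the 4 genes were 2.25-fold, 2.10-fold, 2.37-fold and 1.75-fold the neonatal levels.

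Lactate dehydrogenase is a tetramer of A subunits, typical of glycolytic tissue, and B subunits, typical of heart, and both genes fell around birth but in adult cells Ldha was higher and Ldhb lower than at either earlier age. Ldhb (chromosome 4, 176701985 to 176719891) was at 246, 259 and 185 CPM in fetal libraries, 155, 159 and 163 in neonatal ones and 46.6, 41.8 and 37.4 in adult ones. Each age lay below the one before, without overlap. It fell 1.45-fold around birth (log2 fold change -0.53, SE 0.125, edgeR adjusted p = 0.0104) and was 3.79-fold lower in adult than in neonatal cells (log2 fold change -1.92, SE 0.131, edgeR adjusted p = 2.44e-06), and 5.49-fold lower than in fetal cells (log2 fold change -2.46, SE 0.133, edgeR adjusted p = 3.36e-07). Ldha was at 110.0 ± 4.37 CPM in fetal cells, 87.4 ± 0.451 in neonatal ones and 153 ± 7.74 in adult ones. It fell 1.26-fold around birth (edgeR adjusted p = 0.00317) and rose 1.75-fold from neonatal to adult cells (edgeR adjusted p = 4.44e-06). The cardiomyocyte markers fell in the same order of ages as Ldhb, and their part in it was not tested.

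The transporters that carry lactate and pyruvate across the plasma membrane both fell around birth. Between neonatal and adult cells Slc16a3 rose and Slc16a1 was not called; the difference between them was not tested. Slc16a3 (Mct4, chromosome 10, 110139783 to 110148358), the lactate exporter of glycolytic cells, was at 61.3, 65.5 and 65.2 CPM in fetal libraries, 23.9, 26.8 and 26.5 in neonatal ones and 63.6, 63.6 and 53.5 in adult ones. The neonatal libraries lay below all others, while fetal and adult libraries overlapped. Slc16a3 fell 2.48-fold from fetal to neonatal cells (log2 fold change -1.31, SE 0.0878, edgeR adjusted p = 1.90e-05), the only member past 1 on the log2 scale in that direction, and was 2.34-fold higher in adult than in neonatal cells (log2 fold change 1.23, SE 0.0883, edgeR adjusted p = 3.37e-06). Slc16a1 (Mct1), which moves lactate both ways, was at 58.8 ± 2.79 CPM in fetal cells, 38.6 ± 0.793 in neonatal ones and 39.5 ± 2.90 in adult ones. It fell 1.52-fold around birth (edgeR adjusted p = 0.000393) and did not pass the test between adult and neonatal cells (log2 fold change 0.03, SE 0.0747, edgeR adjusted p = 0.704).

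The make-up of each enzyme family was described by the share of each isozyme in the family's counts per base of exon within a library, a measure that needs no scaling between libraries and was not tested. Hk1 held 78.4% ± 0.759 (mean ± SD, n = 3) of the hexokinase signal in fetal libraries, 85.3% ± 0.273 in neonatal ones and 44.6% ± 2.28 in adult ones, and Hk3 rose from 0.235% ± 0.343 and 1.30% ± 0.151 to 45.7% ± 1.19, so that in adult cultures Hk1 and Hk3 were about level. Hk2 held 21.4% ± 0.577, 13.5% ± 0.265 and 9.71% ± 1.11. Among phosphofructokinases, Pfkp led in neonatal libraries with 51.9% ± 1.14, and Pfkl led in adult libraries with 48.3% ± 0.804. Pfkm fell from 25.4% ± 2.92 in fetal libraries and 23.9% ± 0.527 in neonatal ones to 10.3% ± 1.24 in adult ones. Ldhb held 73.0% ± 4.28 of the lactate dehydrogenase signal in fetal libraries, 70.5% ± 0.595 in neonatal ones and 26.5% ± 3.10 in adult ones, with Ldha as the remainder. Slc16a3 held 56.2% ± 0.355, 44.0% ± 1.06 and 64.2% ± 1.02 of the signal of the lactate transporters. Adult libraries did not overlap those of the other ages in the shares of Hk1, Hk3, Pfkl, Pfkm, Ldhb and Slc16a3. In the adult libraries the macrophage sum was also highest and the cardiomyocyte sum lowest. The part of other cell types in these shares was not tested. Reads that map to several places were left out of the counts, and RefSeq names 30 pseudogenes after Ldha and 1 after Ldhb. Ldha may therefore be counted too low relative to Ldhb, and the size of this effect on the shares was not tested.

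**Figure D4:**
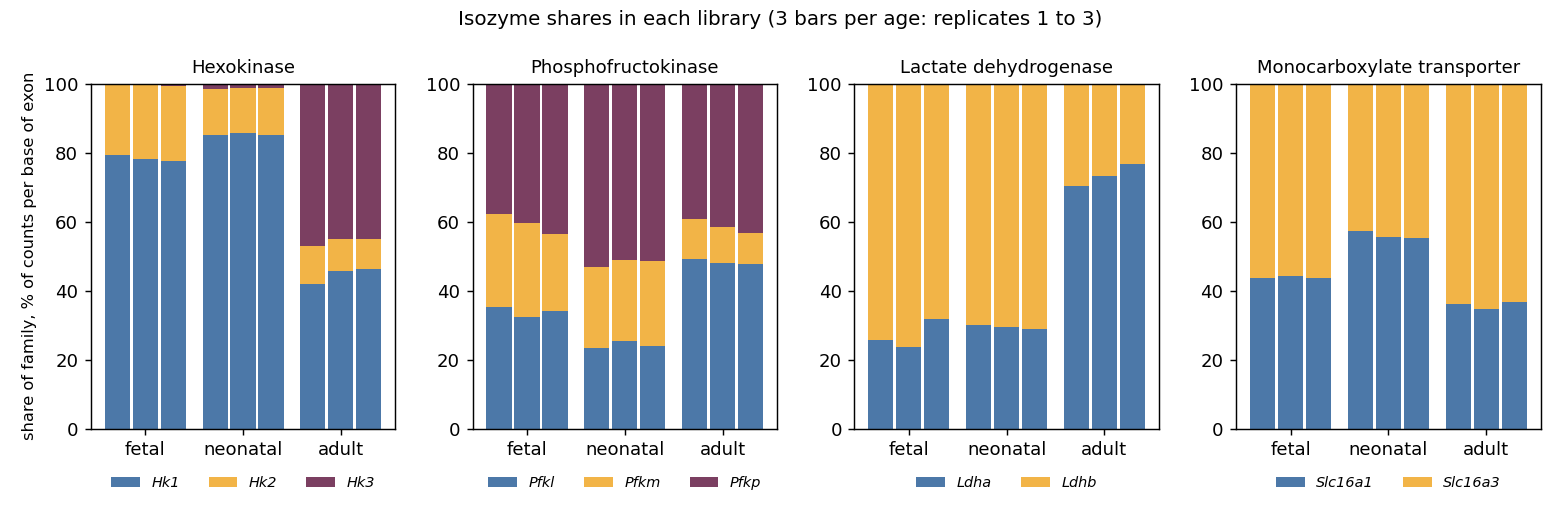
Share of each isozyme in the counts per base of exon of its family, in percent (y axis), in each library (3 bars per age, replicates 1 to 3; segments add up to 100%). Hk3 reaches about the height of Hk1 in the adult libraries only, and Ldha replaces Ldhb as the larger segment there.

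Pyruvate dehydrogenase kinases phosphorylate the E1 subunit and hold pyruvate back from oxidation. Pdk3 (chromosome X, 62836131 to 62903554), the most abundant per length of the 4 on average over the libraries, was at 40.7, 41.5 and 32 CPM in fetal libraries, 30.3, 31.0 and 32.4 in neonatal ones and 28.0, 32.2 and 27.5 in adult ones, overlapping ranges, and was 1.30-fold lower in adult than in fetal cells (log2 fold change -0.38, SE 0.112, edgeR adjusted p = 0.0125). In adult cells Pdk1 was above it per length, at 27.6 against 24.5 TPM. Pdk4 (chromosome 4, 30546772 to 30556774), the isozyme induced by fasting and fatty acids, was scarce at 1.57, 1.37 and 1.33 CPM in fetal libraries, 1.65, 2.18 and 2.46 in neonatal ones and 0.383, 0.650 and 0.449 in adult ones, the last from 5, 9 and 6 counts. Adult libraries lay below all others, 4.18-fold below neonatal (log2 fold change -2.06, SE 0.318, edgeR adjusted p = 0.000380) and 2.84-fold below fetal cells (log2 fold change -1.50, SE 0.324, edgeR adjusted p = 0.00233). Pdk1, a target of hypoxia signalling, rose from 18.2 ± 1.71 to 23.6 ± 1.93 CPM between neonatal and adult cells (edgeR adjusted p = 0.0113), a call lost without neonatal replicate 2 or 3 (edgeR adjusted p from 0.0503 to 0.0552). Pdk2, the widespread form, was at 30.1 ± 4.88, 27.2 ± 0.928 and 27.6 ± 1.69 CPM with no call in any comparison.

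The genes that bring pyruvate into oxidation were lower in adult than in fetal cells, except Mpc2. Pdha1 and Pdhb encode the E1 subunits of pyruvate dehydrogenase and Dlat its E2 core. Dlat went from 35.9 ± 1.81 CPM in fetal cells to 26.6 ± 1.16 in neonatal ones and 19.0 ± 1.59 in adult ones, 1.89-fold lower over the span (log2 fold change -0.92, SE 0.0875, edgeR adjusted p = 1.21e-05), and it was called lower in all 3 comparisons. Pdhb went from 115 ± 2.0 to 97.7 ± 2.02 and 76.0 ± 3.90 CPM, 1.51-fold lower (log2 fold change -0.60, SE 0.0585, edgeR adjusted p = 1.44e-05). Its call around birth (edgeR adjusted p = 0.0125) was lost without neonatal replicate 1 or 2 (edgeR adjusted p from 0.0637 to 0.0649). Pdha1 went from 109 ± 3.80 to 101 ± 3.26 and 86.0 ± 7.96 CPM, 1.27-fold lower (log2 fold change -0.34, SE 0.0755, edgeR adjusted p = 0.00272). Its call for adult against neonatal cells (edgeR adjusted p = 0.0217) was lost without neonatal replicate 1 or 3 or adult replicate 3 (edgeR adjusted p from 0.0527 to 0.0620) and with library size alone. For these 3 subunits every adult library lay below every neonatal library and every neonatal library below every fetal one. The summed cardiomyocyte markers fell in the same order of ages, and their part in these values was not tested.

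The mitochondrial pyruvate carrier is made of Mpc1 and Mpc2, which were called in different comparisons and directions; the difference between them was not tested. Mpc1 was at 64.8 ± 9.16 CPM in fetal cells, 59.1 ± 1.92 in neonatal ones and 53.0 ± 2.14 in adult ones, and its adult level was below the fetal one by a call (edgeR adjusted p = 0.0257) that was lost without fetal replicate 1 or 2 or adult replicate 1 or 3 (edgeR adjusted p from 0.0543 to 0.0897). Mpc2 rose from 27.1 ± 1.37 to 34.0 ± 3.51 CPM between neonatal and adult cells (edgeR adjusted p = 0.0172), a call lost without neonatal replicate 2 or 3 or adult replicate 1 (edgeR adjusted p from 0.0581 to 0.0635). Pc, the pyruvate carboxylase that feeds pyruvate to oxaloacetate and stands in the set as Pcx, was at 37.7 ± 6.90, 30.1 ± 0.806 and 38.8 ± 1.68 CPM and 1.29-fold higher in adult than in neonatal cells (edgeR adjusted p = 0.0279). Whether this call holds without 1 library or with other settings was not tested.

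Levels of different genes were compared per length, in TPM, the counts per base of exon scaled to a sum of 1000000 in each library. Of the members with a readable level, Aldoa had the highest TPM at each age, with 993 in fetal cells, 884 in neonatal ones and 1620.4 in adult ones. In fetal cells Pgam1 (562 TPM), Pgk1 (492), Ldhb (429) and Gpi (411) came next. The SD was 62.4 TPM for Ldhb and 24.0 for Gpi, more than the gap between them. In adult cells Gpi (641 TPM) and Pgk1 (639) followed Aldoa with SDs of 36.5 and 55.3, so their order was not resolved, and Ldhb was at 63.5 TPM. Hk3 reached 154 TPM there, beside 150.1 TPM for Hk1. Reads that map to several places were left out of the counts. The ranks of members with many named pseudogenes, such as Gapdh, Eno1, Ldha and Pkm, are therefore uncertain.

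In adult cells most genes of the pentose phosphate pathway were higher, and most genes of the tricarboxylic acid cycle were lower than in fetal cells. All 12 macrophage markers were also higher and all 13 cardiomyocyte markers lower in that comparison, and their part in these counts was not tested. Counts of these lists are to be read against the shares of all genes called higher and lower, which were 34.9% and 35.5% for adult against fetal cells, 31.6% and 31.8% for adult against neonatal and 18.3% and 18.0% for neonatal against fetal ones. In either direction these shares were 70.5%, 63.5% and 36.3%. All 8 genes of the pentose phosphate pathway, which makes NADPH and ribose from glucose-6-phosphate, were tested, and 6 were higher and 0 lower in adult than in neonatal cells, with 7 higher and 0 lower against fetal cells. Pgd, 6-phosphogluconate dehydrogenase, was at 229 ± 1.59 CPM in neonatal and 667 ± 25.9 in adult cells (log2 fold change 1.55, SE 0.0785, edgeR adjusted p = 4.14e-07), and Rpia, ribose-5-phosphate isomerase, at 15.2 ± 6.06 CPM in fetal and 62.0 ± 1.69 in adult cells (log2 fold change 2.04, SE 0.223, edgeR adjusted p = 3.47e-05). Of 16 tested genes of the tricarboxylic acid cycle, which oxidises acetyl-CoA, 11 were lower and 0 higher in adult than in fetal cells, 7 were lower and 1 higher than in neonatal cells, and 7 were lower and 0 higher in neonatal than in fetal cells. Idh3a, a subunit of isocitrate dehydrogenase, went from 172 ± 1.97 CPM in fetal to 93.1 ± 15.5 in adult cells (log2 fold change -0.89, SE 0.105, edgeR adjusted p = 5.12e-05). Of the 5 other tested genes of the pyruvate dehydrogenase complex and its phosphatases, 4 were lower and 0 higher in adult than in fetal cells, and 4 lower and 0 higher than in neonatal cells. Among them Pdpr, a regulator of the phosphatase, was at 19.3 ± 1.31 CPM in neonatal and 7.43 ± 0.962 in adult cells (log2 fold change -1.38, SE 0.239, edgeR adjusted p = 0.000795), and the phosphatase Pdp2 at 18.4 ± 2.73 in fetal and 12.1 ± 1.67 in adult cells (log2 fold change -0.60, SE 0.137, edgeR adjusted p = 0.00339).

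In adult cells the muscle isozyme of glycogen phosphorylase was at its lowest level and the liver isozyme at its highest. Of 12 tested genes of gluconeogenesis and glycogen, 3 were higher and 6 lower in adult than in fetal cells, or 25% and 50% against 34.9% and 35.5% of all genes. Pygm, the muscle glycogen phosphorylase, went from 78.4 ± 13.9 CPM in fetal cells and 48.3 ± 4.01 in neonatal ones to 0.747 ± 0.148 in adult ones (log2 fold change -6.70, SE 0.205, edgeR adjusted p = 1.21e-08 for adult against fetal), while Pygl, the liver form, was at 7.14 ± 1.15, 2.46 ± 0.110 and 69.6 ± 9.98 CPM (log2 fold change 4.82, SE 0.166, edgeR adjusted p = 4.22e-08 for adult against neonatal). The cardiomyocyte sum was lowest and the macrophage sum highest in the same adult libraries, and their part was not tested. Of 13 tested further isozymes and sugar or lactate transporters, 5 were higher and 4 lower in adult than in fetal cells, or 38.5% and 30.8%, near the 34.9% and 35.5% of all genes. Slc2a9, a urate and sugar transporter, went from 1.04 ± 0.0858 to 44.1 ± 3.31 CPM (log2 fold change 5.40, SE 0.147, edgeR adjusted p = 5.38e-09), and Eno3, the muscle enolase, from 19.9 ± 3.08 to 6.50 ± 0.426 CPM (log2 fold change -1.61, SE 0.135, edgeR adjusted p = 5.17e-06).

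Hypoxia-inducible genes outside glycolysis did not all go one way. Of 15 tested genes 10 were higher and 2 lower in adult cells relative to fetal ones, with 8 and 3 against neonatal cells and 5 and 2 between neonatal and fetal cells. For adult against fetal cells these were 66.7% and 13.3%, against 34.9% and 35.5% of all genes. For adult against neonatal cells they were 53.3% and 20%, against 31.6% and 31.8%. For neonatal against fetal cells they were 33.3% and 13.3%, against 18.3% and 18.0%. Adm, the vasodilator peptide adrenomedullin, was at 42.4 ± 10.7 CPM in fetal and 655 ± 332 in adult cells (log2 fold change 3.95, SE 0.362, edgeR adjusted p = 1.42e-05), whereas Car9, a carbonic anhydrase induced by low oxygen, was at 63.6 ± 34.3 CPM in fetal and 4.75 ± 1.52 in adult cells (log2 fold change -3.74, SE 0.492, edgeR adjusted p = 0.000138). Of 16 tested regulators of glucose use, 5 were higher and 7 lower in adult than in fetal cells, or 31.25% and 43.75%, against 34.9% and 35.5% of all genes. Egln3, a prolyl hydroxylase that marks hypoxia-inducible factors for destruction, went from 24.0 ± 3.46 to 2.76 ± 1.56 CPM (log2 fold change -3.12, SE 0.343, edgeR adjusted p = 3.55e-05), and Prkaa2, a catalytic subunit of AMP-activated kinase typical of muscle, from 18.3 ± 0.488 to 0.201 ± 0.228 CPM (log2 fold change -6.48, SE 0.421, edgeR adjusted p = 1.03e-06). All 13 cardiomyocyte markers were also lower and all 12 macrophage markers higher in adult than in fetal cells. Their part in the values of these lists was not tested.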

How the data were processed

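The authors deposited raw gene counts for all 9 libraries, made with featureCounts 1.6.3 and an rn6 annotation per the file headers; only annotation and output options were set, so counting was unstranded and left out reads mapping to several places, which are that program's defaults. Per the submitters' processing notes FastQC, Trimmomatic 0.39, STAR 2.5.2b and DESeq2 were also used, with no role given. A deposited table of normalized values was not used. All 37 present members matched a current RefSeq symbol (GRCr8). Gene coordinates come from the count table (rn6) and promoter coordinates from RefSeq (GRCr8).

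Genes were kept by filterByExpr, scaled by TMM and tested in edgeR 4.0.16 (R 4.3.3) by robust quasi-likelihood fits to all 9 libraries with age as the only term, with Benjamini-Hochberg adjustment over 11337 genes. Each SE is the size of the log2 fold change over the square root of F. The script was tested on simulated data. No 2 libraries of an age agreed within counting error by chi-square over genes. CPM and TPM were computed from the counts. Alternatives were DESeq2 1.42.0, other scalings, no filter, fits of 2 ages, the replicate number as a term, and leaving out each library. Values in every library are given for members past the threshold with a log2 fold change of at least 1 in size in any comparison and for the most abundant isozyme of each family. From each list of other pathway genes the text names at most the 2 called genes that changed most and reached 10 CPM on average in the age where they were higher. One gene that this rule names is not reported here. Members and lists were chosen with earlier results of these data known. Intervals between libraries cover the spread of these cultures only.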

Additional observations from a re-analysis of the deposited data

How the results depend on the processing

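The 34 tested members gave 69 calls over the 3 comparisons. Of these 50 passed the threshold in the same direction under all alternatives run, 19 were lost under at least 1, and 0 changed direction. Leaving out 1 library lost 7 of 19 calls between neonatal and fetal, 5 of 26 between adult and neonatal and 2 of 24 between adult and fetal cells, each at least once; fewer libraries are then tested, and the cause was not tested further. Without 1 library the number of members called lower and higher ran from 9 to 18 and from 3 to 4 between neonatal and fetal, from 8 to 9 and from 13 to 16 between adult and neonatal, and from 11 to 13 and from 11 to 13 between adult and fetal cells. With library size alone 23 members were lower and 1 higher between neonatal and fetal cells. A further minimum of 1 on the size of the log2 fold change, which removes calls by construction, left 1 lower and 1 higher, 4 lower and 7 higher, and 5 lower and 2 higher in the 3 comparisons. Shares without division by exon length were 43.3% for Hk3 in adult libraries, 67.3%, 64.5% and 21.6% for Ldhb and 52.1%, 40.0% and 60.4% for Slc16a3 in fetal, neonatal and adult libraries, with the same order of ages. Calls over all genes between neonatal and fetal cells were 4114, and 2607, 2476 and 2575 without neonatal replicates 1, 2 and 3. A replicate block gave 13 lower and 4 higher members between neonatal and fetal, 9 and 16 between adult and neonatal and 12 and 12 between adult and fetal cells. The replicate numbers share no stated source, same-numbered libraries did not deviate together (9 correlations from -0.0649 to 0.0521), and a library correlated best with its own number in 7 of 18 cases. Apart from left-out libraries, the calls lost were Pfkp, Pfkfb2 and Pgam2 (neonatal and fetal), Pdha1 (adult and neonatal) and Hk1, Pfkp and Pkm (adult and fetal) with library size alone, Pkm (neonatal and fetal) and Pfkfb4 (adult and neonatal) with no filter and with a replicate block, Pfkfb1 (neonatal and fetal) with a replicate block, and Hk3 and Pkm (neonatal and fetal) and Hk1 and Mpc1 (adult and fetal) when fitted on the 6 libraries of the pair. The log2 fold changes that changed sign had passed no test. Between adult and fetal cells these were Aldoc (-0.00656, and 0.00397 with a replicate block and from -0.23 to 0.14 without 1 library), Hk2 (-0.0632, and from -0.22 to 0.0637 without 1 library), Pfkfb2 (0.0455, and -0.0653 with library size alone and from -0.0477 to 0.14 without 1 library), Pfkfb3 (-0.0335, and from -0.20 to 0.0568 without 1 library). Between neonatal and fetal cells these were Gpi (0.0446, and -0.12 with library size alone and from -0.0254 to 0.10 without 1 library), Hk1 (0.15, and -0.0142 with library size alone), Pfkfb4 (-0.13, and from -0.42 to 0.27 without 1 library). Between adult and neonatal cells these were Pdk2 (0.0242, and -0.0043 with no filter and from -0.0226 to 0.0648 without 1 library), Slc16a1 (0.0347, and from -0.0167 to 0.0878 without 1 library). Depth limits the members of lowest count, Slc2a4 and Pdk4 in adult and Hk3 in fetal libraries, whose fold changes rest on the few counts given above.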
